A study of Homo sapiens with 10 samples.

Results

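Keratins and the proteins of desmosomes and adherens junctions hold epithelial sheets together, and the transcripts of 10 such genes were followed across human lung cancer cells that differ in their response to discodermolide, a natural product that stabilises microtubules. The genes were picked by name as a set of epithelial genes, at a time when earlier results of these data were known, so their counts are a description of a chosen set. They comprise the keratins KRT7, KRT8, KRT18 and KRT19, the plaque genes JUP, DSP and PKP2, the desmosomal cadherins DSG2 and DSC2, and CDH1, and make up 10 of the 18279 genes that had a probe set of their own on the arrays. Each gene was read from its probe set, the one with the highest mean where there were several, as the log2 signal deposited by the authors.

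RNA was measured on 10 Affymetrix arrays in 4 groups. AD32 4E-BP1 is a line labelled sensitive, named after the translational repressor 4E-BP1 and kept in 0.01% DMSO (1 array). AD32, labelled resistant, grew in 32 nM discodermolide (3 arrays). A549 disco denotes A549, a lung adenocarcinoma line, given 32 nM discodermolide and labelled senescent (2 arrays), and A549 DMSO denotes the same line in 0.01% DMSO, labelled sensitive (4 arrays). AD32 is a resistant derivative of A549 by background knowledge. The sources used here do not give whether AD32 or AD32 4E-BP1 is 1 clone or how long each group was in drug. The AD32 cells were in drug and the A549 DMSO cells were not, so in that comparison the line and the presence of drug cannot be told apart. Numbered samples are called biological replicates in the labels, which do not say how they were grown. The p-values therefore measure the spread between these samples within groups, pooled over all groups and moderated towards that of all genes.

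Keratins are intermediate filament proteins that assemble as pairs of a type II and a type I chain, KRT8 with KRT18 being the usual pair of simple epithelia such as the lining of the airways and glands. Desmosomes anchor these filaments at the cell border: desmogleins and desmocollins bind across the gap between cells, plakoglobin and plakophilins hold their tails, and desmoplakin ties the plaque to keratin. Adherens junctions use E-cadherin in the same way but attach to actin through catenins, and plakoglobin can serve in either junction.

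Several arrays stood apart before any of the 10 genes was considered. EIF4EBP1, which encodes 4E-BP1, had a log2 signal of 11.61 on the AD32 4E-BP1 array, 7.99 to 8.93 on the AD32 arrays, 9.58 to 9.76 on the A549 disco arrays and 9.47 to 10.23 on the A549 DMSO arrays. Over all probe sets, the AD32 4E-BP1 array correlated at 0.944 to 0.983 with AD32 arrays and at 0.964 to 0.995 with A549 DMSO arrays (Pearson's r, a description over probe sets of arrays that share a scale). It was closer to A549 DMSO replicates 2, 3 and 4 than to any AD32 array, and the values given for AD32 4E-BP1 rest on its label. AD32 replicate 3 correlated at 0.959 and 0.965 with the other AD32 arrays and at 0.975 to 0.981 with A549 DMSO replicates 2 to 4. A549 DMSO replicate 1 correlated at 0.956 to 0.961 with the rest of its group and at 0.976 and 0.978 with the A549 disco arrays. A list of 29 measured G2/M and mitosis genes averaged 5.06, 6.08 and 9.51 on AD32 replicates 1 to 3, 6.49 and 6.72 on the A549 disco arrays, and 6.73, 9.82, 9.96 and 9.91 on A549 DMSO replicates 1 to 4, so that AD32 replicate 3 and A549 DMSO replicate 1 each differed from the rest of their group. A549 DMSO replicates 3 and 4 correlated at 0.997, and whether they are separate cultures is not stated. Array medians lay between 6.50 and 6.63 and lower quartiles between 4.77 and 4.94. EPCAM, a surface protein of most epithelia, lay between 3.30 and 3.87 and so under the lower quartile of every array, and the lung lineage factor NKX2-1 lay between 4.58 and 5.11. Leukocyte marker lists averaged 4.79 to 5.45 and endothelial ones 4.40 to 4.79, and 0 of 8 and 0 of 5 of their measured genes passed the test in AD32 against A549 DMSO.

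Promoter sequence was available for 5 of the 10 genes, in 7 entries, taken from RefSeq (GRCh38.p14) as the 250 bases upstream of each start, on the gene's strand. It is shown for the desmosomal genes DSP, JUP, DSG2 and DSC2, which passed the test in AD32 against A549 DMSO, and for KRT8, which passed no test. No promoter sequence was available for KRT7, PKP2 and CDH1, which also passed the test in AD32 against A549 DMSO, or for KRT18 and KRT19. Capitals mark the E-box CACCTG or its reverse complement CAGGTG, the letters that repressors of CDH1 such as the SNAI and ZEB proteins are known to bind. The windows are chr6:7541421-7541670 (+) for DSP, chr17:41785977-41786226 (-) for JUP, chr18:31497927-31498176 (+) for DSG2, chr18:31102422-31102671 (-) for DSC2 and chr12:52926470-52926719 (-) for KRT8.
DSP: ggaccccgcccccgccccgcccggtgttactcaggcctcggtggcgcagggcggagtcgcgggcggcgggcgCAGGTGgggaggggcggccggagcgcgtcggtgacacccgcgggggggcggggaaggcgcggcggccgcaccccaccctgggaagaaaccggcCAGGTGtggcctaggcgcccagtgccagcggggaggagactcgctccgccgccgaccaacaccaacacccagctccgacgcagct
JUP: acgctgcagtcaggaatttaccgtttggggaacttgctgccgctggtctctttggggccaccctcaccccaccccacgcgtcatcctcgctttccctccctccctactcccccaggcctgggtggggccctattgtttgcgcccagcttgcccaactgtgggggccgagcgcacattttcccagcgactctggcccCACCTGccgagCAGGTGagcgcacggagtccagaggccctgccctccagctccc
DSG2: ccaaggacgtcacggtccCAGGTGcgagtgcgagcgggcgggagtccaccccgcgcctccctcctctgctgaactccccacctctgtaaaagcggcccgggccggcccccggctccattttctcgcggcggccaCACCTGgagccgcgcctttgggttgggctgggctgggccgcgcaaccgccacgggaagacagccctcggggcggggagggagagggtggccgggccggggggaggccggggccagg
DSC2: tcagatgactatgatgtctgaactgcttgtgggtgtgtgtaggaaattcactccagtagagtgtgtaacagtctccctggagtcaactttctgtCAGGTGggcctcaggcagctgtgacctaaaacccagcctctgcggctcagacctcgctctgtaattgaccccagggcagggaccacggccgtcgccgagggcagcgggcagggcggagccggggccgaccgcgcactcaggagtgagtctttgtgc
KRT8: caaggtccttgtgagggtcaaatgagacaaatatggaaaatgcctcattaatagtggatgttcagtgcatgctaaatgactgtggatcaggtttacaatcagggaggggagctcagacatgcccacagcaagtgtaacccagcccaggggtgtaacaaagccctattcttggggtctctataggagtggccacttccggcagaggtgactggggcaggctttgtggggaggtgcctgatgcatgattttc
The E-boxes of DSP began 178 and 85 bases before its start, those of JUP 54 and 43 bases, and those of DSG2 232 and 116 bases. DSC2 had 1, 156 bases before the start shown. KRT8 had none in this window, nor did the second entries of JUP (chr17:41786712-41786961) and DSC2 (chr18:31101261-31101510), which are not shown. Of 35116 RefSeq promoter windows of the same length, searched on both strands, 17.5% held an E-box. The palindrome AACCGGTT, the core that Grainyhead-like factors are known to bind, stood in 0.117% of all windows and in 0 of the 7. The motifs do not overlap, and the median GC content was 66.0% in the 7 windows and 58.0% in all. A match is only a run of letters, and binding was not measured.

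KRT7, a type II keratin of simple epithelia, changed more than any other of the 10 genes in AD32. Its log2 signal was 11.84, 11.74 and 11.76 on the AD32 arrays, 7.44 and 7.45 on the A549 disco arrays, and 7.02, 7.40, 7.00 and 7.12 on the A549 DMSO arrays. All AD32 arrays were high, the A549 arrays were low with or without drug, and no AD32 array overlapped with them. In RNA of whole cultures, a change in the share of cells that express a gene and one in RNA per cell cannot be told apart. AD32 averaged 11.78 ± 0.05 (SD, n = 3) and A549 DMSO 7.13 ± 0.18 (SD, n = 4), a log2 difference of 4.65 (SE 0.13, 95% interval 4.35 to 4.94), or 25.0-fold in signal (limma, adjusted p = 8.19e-07). Against A549 disco, which averaged 7.45 ± 0.01 (SD, n = 2), KRT7 was higher in AD32 by 4.33 (SE 0.16, 20.2-fold, limma adjusted p = 7.61e-06). A549 disco minus A549 DMSO was 0.31 (SE 0.15, limma adjusted p = 0.477), which missed the threshold. Without AD32 replicate 3, the array with the high mitosis list, KRT7 differed from A549 DMSO by 4.66, and without A549 DMSO replicate 1 by 4.61.

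KRT8 and KRT18, partner chains of the simple epithelial filament, had overlapping or nearly overlapping groups. KRT8 had 13.35, 13.28 and 13.73 in AD32, 13.53 and 13.27 in A549 disco, and 12.67, 13.34, 13.31 and 13.32 in A549 DMSO. KRT18 had 13.77, 13.94 and 14.00 in AD32, 13.90 and 13.61 in A549 disco, and 13.03, 13.70, 13.63 and 13.60 in A549 DMSO. For each, the lowest array was A549 DMSO replicate 1, and for KRT18 the AD32 arrays lay just above all A549 DMSO arrays. The AD32 minus A549 DMSO difference was 0.29 for KRT8 (95% interval -0.16 to 0.75, limma adjusted p = 0.504). For KRT18 it was 0.41 (95% interval 0.00 to 0.83, limma adjusted p = 0.251). Each gene has near-identical copies elsewhere in the genome, so its signal may be shared with them and is uncertain. A further KRT18 probe set read 12.78, 12.85 and 12.96 in AD32 and 12.22, 12.68, 12.65 and 12.73 in A549 DMSO, again without overlap and with a narrow gap.

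KRT19, a type I keratin that can pair with KRT7 or KRT8, was low throughout. It had 6.26, 6.04 and 5.87 in AD32, 5.87 and 6.12 in A549 disco, and 6.28, 5.71, 5.85 and 5.88 in A549 DMSO. The groups overlapped fully, every array lay under its own array's median, and signal above background was not shown. The AD32 minus A549 DMSO difference was 0.12 (95% interval -0.25 to 0.50, limma adjusted p = 0.788).

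**Figure D1:**
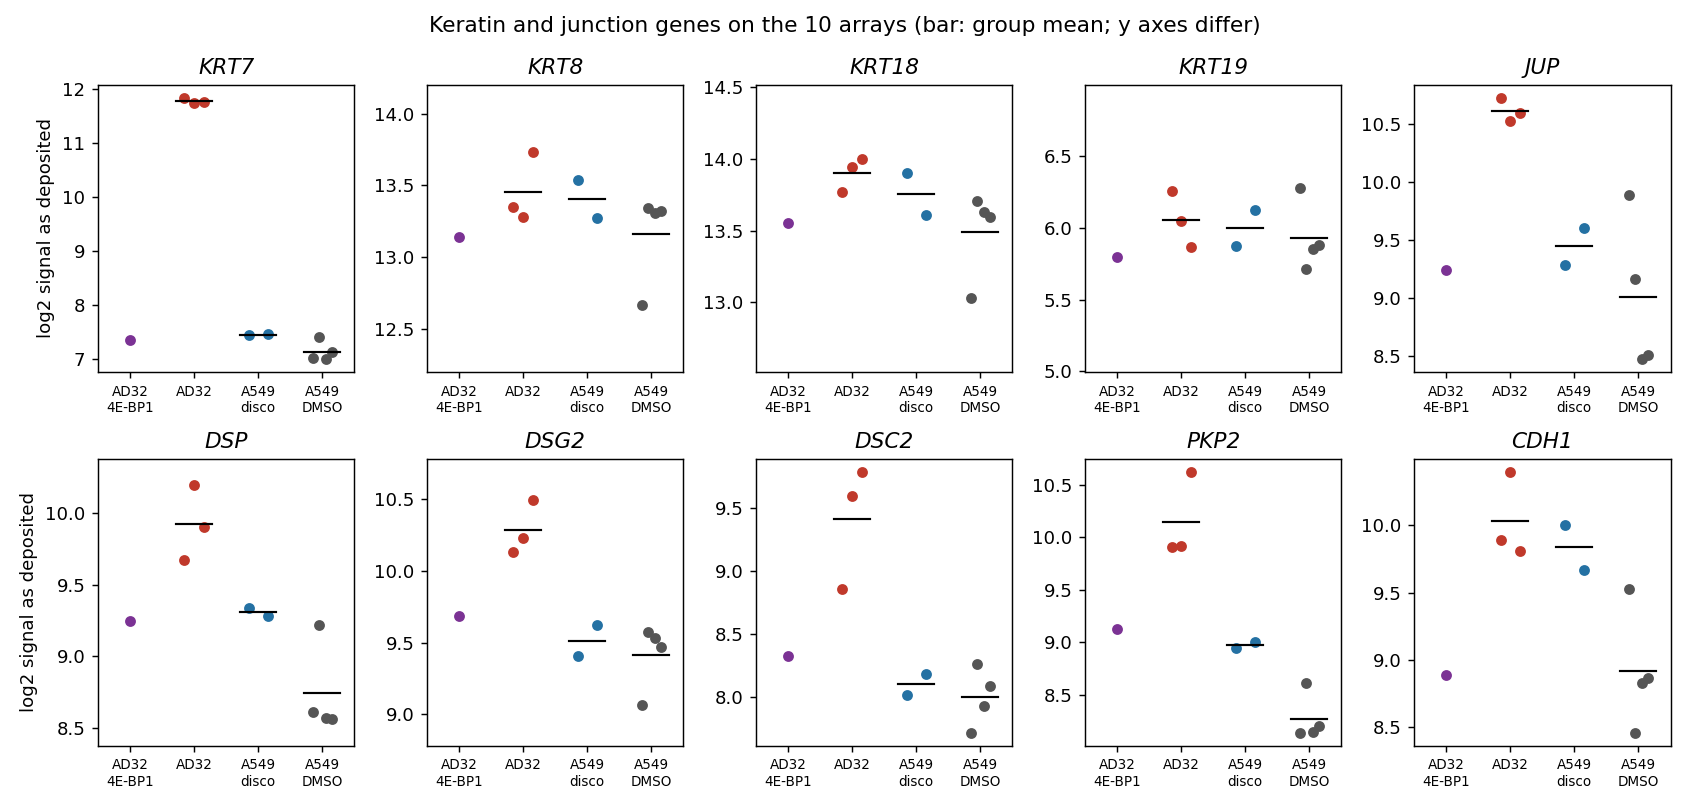
Log2 signal (vertical axis) of each of the 10 genes on each array, by group, with 1 point per array, a line at the group mean and a vertical scale of its own for each gene. KRT7 stands near 11.8 on the AD32 arrays and between 7.00 and 7.45 on every other array, while the group means of KRT8, KRT18 and KRT19 differ by less than 0.5.

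Among the genes of the desmosomal plaque, PKP2, JUP and DSP were all higher in AD32 than in A549 DMSO. PKP2, plakophilin 2, which binds desmosomal cadherins and recruits desmoplakin, had 9.91, 9.92 and 10.63 in AD32, 8.95 and 9.00 in A549 disco, and 8.14, 8.61, 8.14 and 8.20 in A549 DMSO. The 3 groups did not overlap, and A549 disco lay between AD32 and A549 DMSO. AD32 exceeded A549 DMSO by 1.88 (SE 0.20, 3.67-fold, limma adjusted p = 0.0012), with means of 10.15 ± 0.41 (SD, n = 3) and 8.27 ± 0.23 (SD, n = 4). Against A549 disco, at 8.98 ± 0.04 (SD, n = 2), AD32 was higher by 1.17 (SE 0.24, 2.26-fold, limma adjusted p = 0.0338). A549 disco minus A549 DMSO was 0.70 (SE 0.23, limma adjusted p = 0.303), which missed the threshold although the arrays did not overlap.

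JUP encodes plakoglobin, the catenin shared by desmosomes and adherens junctions. It had 10.72, 10.53 and 10.59 in AD32, 9.29 and 9.61 in A549 disco, and 9.89, 9.17, 8.48 and 8.52 in A549 DMSO. AD32 lay above every A549 array, whereas the A549 disco arrays fell inside the wide A549 DMSO range, whose highest value was replicate 1. JUP was higher in AD32, at 10.61 ± 0.10 (SD, n = 3), than in A549 DMSO, at 9.01 ± 0.66 (SD, n = 4), by 1.60 (SE 0.32, 3.04-fold, limma adjusted p = 0.0196). The call was lost without AD32 replicate 1 or 2, without A549 DMSO replicate 3 or 4 and with those 2 A549 DMSO arrays averaged (limma adjusted p = 0.0592), and the difference stayed between 1.42 and 2.02 over all 19 alternatives. Against A549 disco the difference was 1.17 (SE 0.38, limma adjusted p = 0.149), and that of A549 disco minus A549 DMSO was 0.43 (SE 0.36, limma adjusted p = 0.745).

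DSP encodes desmoplakin, the link between the plaque and keratin filaments. Its signal was 9.67, 10.19 and 9.90 in AD32, 9.34 and 9.28 in A549 disco, and 8.61, 9.22, 8.57 and 8.56 in A549 DMSO. As for PKP2, the groups were stacked without overlap, AD32 uppermost and A549 disco in the middle, with A549 DMSO replicate 2 close to A549 disco. DSP was higher in AD32, at 9.92 ± 0.26 (SD, n = 3), than in A549 DMSO, at 8.74 ± 0.32 (SD, n = 4), by 1.18 (SE 0.20, 2.27-fold, limma adjusted p = 0.00978). AD32 minus A549 disco was 0.61 (SE 0.23, limma adjusted p = 0.232) and A549 disco minus A549 DMSO 0.57 (SE 0.22, limma adjusted p = 0.385), so the middle group was not separated from either neighbour by the test.

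The desmosomal cadherins DSG2 and DSC2, desmoglein 2 and desmocollin 2, are the pair found in simple epithelia. DSC2 had 8.86, 9.60 and 9.79 in AD32, 8.02 and 8.19 in A549 disco, and 7.72, 8.26, 7.93 and 8.09 in A549 DMSO. DSG2 had 10.13, 10.23 and 10.50 in AD32, 9.41 and 9.62 in A549 disco, and 9.07, 9.57, 9.54 and 9.47 in A549 DMSO. For either gene AD32 lay above all A549 arrays, and the A549 disco and A549 DMSO arrays overlapped. DSC2 was higher in AD32, at 9.41 ± 0.49 (SD, n = 3), than in A549 DMSO, at 8.00 ± 0.23 (SD, n = 4), by 1.41 (SE 0.23, 2.66-fold, limma adjusted p = 0.00838). DSG2 was higher in AD32, at 10.29 ± 0.19 (SD, n = 3), than in A549 DMSO, at 9.41 ± 0.23 (SD, n = 4), by 0.88 (SE 0.16, 1.83-fold, limma adjusted p = 0.0156), a call lost without AD32 replicate 2. Against A549 disco, DSC2 was higher in AD32 by 1.31 (SE 0.27, 2.48-fold, limma adjusted p = 0.0338), while the DSG2 difference of 0.77 (SE 0.19, limma adjusted p = 0.0681) missed the threshold. In A549 disco minus A549 DMSO, each gene differed by 0.10 (95% interval -0.32 to 0.52 for DSG2 and -0.48 to 0.69 for DSC2).

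CDH1, E-cadherin, the adhesion receptor of epithelial adherens junctions, followed another course. It had 9.89, 10.40 and 9.81 in AD32, 10.01 and 9.67 in A549 disco, and 9.53, 8.46, 8.83 and 8.87 in A549 DMSO. The AD32 and A549 disco arrays overlapped with each other, and all of them lay above the A549 DMSO arrays, of which replicate 1 was the highest. AD32, at 10.03 ± 0.32 (SD, n = 3), exceeded A549 DMSO, at 8.92 ± 0.44 (SD, n = 4), by 1.11 (SE 0.25, 2.16-fold, limma adjusted p = 0.0357). This call was made in only 7 of 19 alternatives and was lost without any 1 of AD32 replicates 1 and 2, A549 DMSO replicates 2, 3 and 4 or the A549 disco arrays, with a difference of 0.93 to 1.32 throughout. A549 disco, at 9.84 ± 0.24 (SD, n = 2), differed from A549 DMSO by 0.92 (SE 0.29, limma adjusted p = 0.276), and without A549 DMSO replicate 1 by 1.12 (limma adjusted p = 0.0376). AD32 minus A549 disco was 0.20 (95% interval -0.49 to 0.88, limma adjusted p = 0.880).

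**Figure D2:**
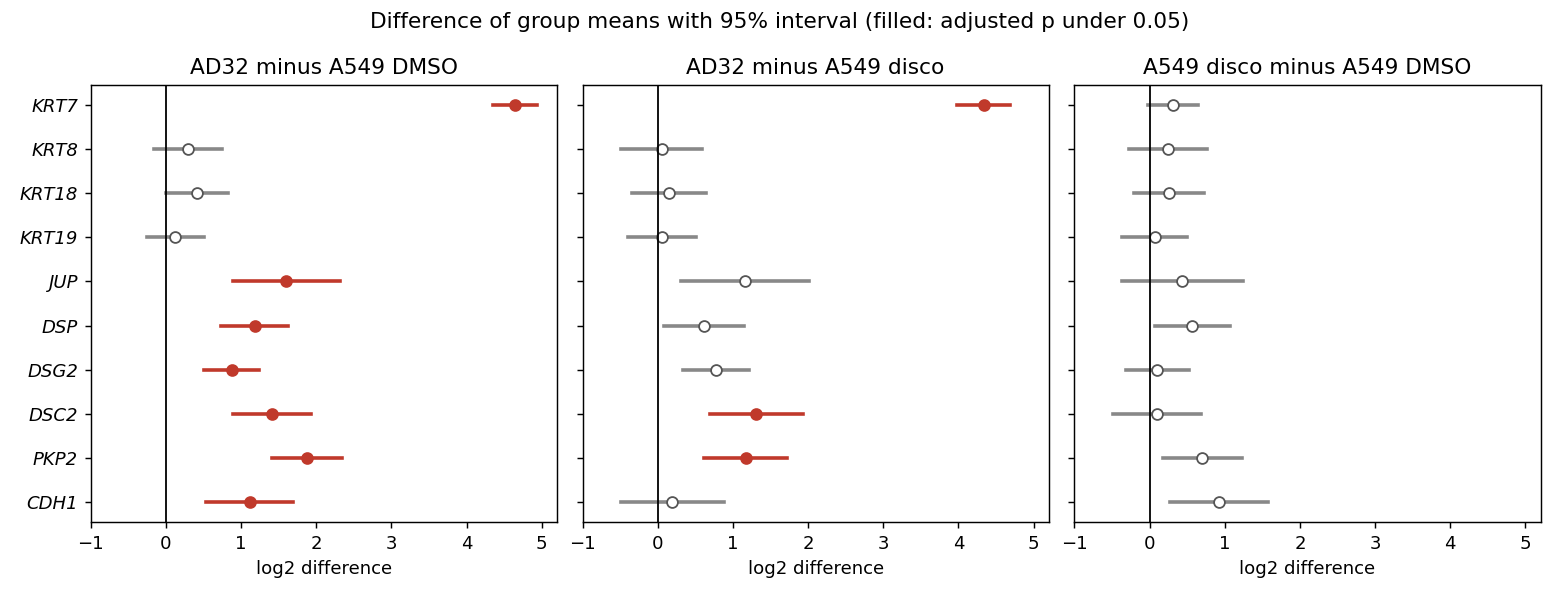
Log2 difference of group means (horizontal axis) with its 95% interval for each gene, in AD32 minus A549 DMSO, AD32 minus A549 disco and A549 disco minus A549 DMSO. Filled points have a limma adjusted p under 0.05: 7 in the comparison of AD32 with A549 DMSO, 3 in that with A549 disco and 0 between the A549 groups.

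Counted together, 7 of the 10 genes passed the test as higher in AD32 than in A549 DMSO and 0 as lower, where 3.52% of all 18279 genes passed as higher and 2.19% as lower. The AD32 arrays lay wholly above the A549 DMSO arrays for 8 of 10, against 8.9% of all genes. The median difference was 1.15 over the 10 genes and 0.01 over all genes. Dropping AD32 replicate 3 or A549 DMSO replicate 1, the arrays on which the mitosis list differed, left the same 7 genes called. Only KRT7, DSP, DSC2 and PKP2 were called without AD32 replicate 2, and averaging A549 DMSO replicates 3 and 4 left 5, as JUP and CDH1 lost their calls.

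Against A549 disco, where each group was in 32 nM drug, 3 of 10 were called higher in AD32 (background 1.28% of genes), namely KRT7, DSC2 and PKP2. AD32 lay above both A549 disco arrays for 6 of 10, against 14.4% of genes, and the median difference was 0.69 against 0.01 over all genes. KRT7 alone was left as called without AD32 replicate 2, without A549 DMSO replicate 3 or 4 and without either A549 disco array, which leaves 1 array in that group, assumed to vary like the others. PKP2 also lost its call without AD32 replicate 1. Without A549 DMSO replicate 1 the count was 5, with JUP and DSG2 added.

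In A549 disco against A549 DMSO, 0 of the 10 genes were called higher by limma, with 0.35% of all genes called. All 10 differences were positive, between 0.07 and 0.92, as were those of 9872 of all 18279 genes. The median was 0.29 over the 10 and 0.02 over all genes. Of the 10, 3 had an unadjusted p under 0.05 by limma, as did 2033 of all genes. The sign was kept in 15 of 19 alternatives for KRT19, whose lowest value was -0.06, and in 17 of 19 for DSG2, whose lowest was -0.01 without A549 DMSO replicate 1. KRT7, DSP, PKP2 and CDH1 lay above every A549 DMSO array in A549 disco, 4 of 10, against 15.2% of all genes. The comparisons of AD32 and of A549 disco with A549 DMSO share their A549 DMSO arrays, so their values stand side by side and are not independent. Given side by side, PKP2 differed by 1.88 in AD32 and 0.70 in A549 disco, DSP by 1.18 and 0.57, CDH1 by 1.11 and 0.92, and DSC2 by 1.41 and 0.10.

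The AD32 4E-BP1 array read lower than every AD32 array for all 10 genes, as it did for 27.7% of all genes. KRT7 was 7.35 on it, against 11.84, 11.74 and 11.76 on the AD32 arrays, a difference of -4.43 (SE 0.20, 21.5-fold lower, limma adjusted p = 5.16e-05). That array is the only one of its group and is assumed to vary like the others, and KRT7 was the 1 gene of the 10 called lower, with a background of 0.58%. The desmosomal genes had 9.25 for JUP, 9.25 for DSP, 9.13 for PKP2, 8.32 for DSC2 and 9.68 for DSG2. Their differences from AD32 were -1.37, -0.68, -1.02, -1.09 and -0.60 in that order, none of them called (limma adjusted p = 0.261 to 0.525). CDH1 was 8.89 on the AD32 4E-BP1 array and differed from AD32 by -1.15 (limma adjusted p = 0.333). KRT8, KRT18 and KRT19 had 13.14, 13.55 and 5.80, with differences from AD32 of -0.31, -0.35 and -0.26. The median difference from AD32 was -0.85 over the 10 genes and -0.03 over all genes.

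Set against A549 DMSO, the AD32 4E-BP1 array fell within the range of the 4 arrays for 6 of 10 genes, KRT7, KRT8, KRT18, KRT19, JUP and CDH1, as it did for 69.0% of all genes. It lay above all A549 DMSO arrays for DSP, DSG2, DSC2 and PKP2, and the share of all genes for which it did so was not counted. The PKP2 difference was 0.85 (SE 0.30, 95% interval 0.18 to 1.53, limma adjusted p = 1.00), and its call was not made. limma called 0 of the 10 and 0.0% of all genes in this comparison, with 208 genes at an unadjusted p under 0.05 and 3 called with array weights. The AD32 4E-BP1 cells were in DMSO and the AD32 cells in drug, so the line and the drug cannot be told apart here either, and the mitosis list stood at 9.73 on the AD32 4E-BP1 array.

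Of 65 other measured keratin and junction genes in 7 lists, 10 (15.4%) were called higher in AD32 than in A549 DMSO and 1 (1.54%) lower, with a median difference of 0.17. The number called higher was 5 without AD32 replicate 2 or A549 DMSO replicate 3 or 4, 6 without AD32 replicate 1, 7 without A549 DMSO replicate 2, 15 without AD32 replicate 3, 16 without A549 DMSO replicate 1 and 24 with array weights. With array weights 2037 of all 18279 genes were called higher, against 644 (3.52%) in the main fit. Among desmosome genes only DSC3, desmocollin 3, known from stratified epithelia, was called, 1 of 9. It had 6.66, 7.34 and 6.49 in AD32, 3.63 and 3.64 in A549 disco, and 4.12, 3.67, 3.63 and 3.73 in A549 DMSO. AD32 was apart from all other arrays, which lay under their lower quartile, so that the difference of 3.04 (SE 0.21, 8.23-fold, limma adjusted p = 6.9e-05) is a ratio of signals and need not be one of transcripts. PKP3, another plakophilin, differed by 0.57 (limma adjusted p = 0.143).

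Hemidesmosomes, which anchor keratin to the basement membrane, had 3 of 4 measured genes called higher in AD32. LAMB3, a chain of laminin-332, had 10.24, 10.24 and 9.53 in AD32, 7.49 and 7.81 in A549 disco, and 6.71, 6.88, 6.36 and 6.42 in A549 DMSO. ITGB4, the integrin beta 4 chain, had 10.88, 9.77 and 9.87 in AD32, 7.75 and 8.05 in A549 disco, and 8.34, 6.82, 6.32 and 6.34 in A549 DMSO. AD32 lay above all A549 arrays for each of these genes. The differences from A549 DMSO were 3.41 for LAMB3 (10.6-fold, limma adjusted p = 3.99e-05) and 3.22 for ITGB4 (9.30-fold, limma adjusted p = 0.00634). ITGA6, the partner of ITGB4, differed by 0.54 (limma adjusted p = 0.0407).

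Tight junction genes had 3 called higher and 1 lower of 15 in AD32 against A549 DMSO. The 3 were MARVELD2, tricellulin, by 1.68, CGN, cingulin, by 1.41, and the claudin CLDN1, by 1.10, and the lower one was the polarity gene PARD3, by -0.75. Adherens junction genes had 1 of 15, NECTIN4, by 1.31. The catenin CTNNB1, at 0.37 (limma adjusted p = 0.323), and N-cadherin, CDH2, at -0.17 (limma adjusted p = 0.843), were not called. Periplakin, PPL, a plakin that binds keratin, was called at 1.25, 1 of 6 cytolinkers. KRT222 was called at 0.61, 1 of 5 keratins that were listed here as other simple-epithelial ones. Its signals were 3.62 to 3.93 in AD32 and 3.02 to 3.23 in A549 DMSO, all under the lower quartile. Stratified and basal keratins had 0 of 11 called.

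The calls of DSC3, LAMB3, ITGB4 and MARVELD2 held in 9 of 9 fits that left out 1 array. CGN lost its call without A549 DMSO replicate 3 or 4, PPL without AD32 replicate 1 or 2 or A549 DMSO replicate 3, and NECTIN4 without AD32 replicate 1 or 2 or A549 DMSO replicate 4. KRT222 lost it without AD32 replicate 2 or A549 DMSO replicate 2, 3 or 4. Of these 9 fits, CLDN1, ITGA6 and PARD3 were called in 2, which left out AD32 replicate 3 or A549 DMSO replicate 1, and ITGA6 also lost its call with quantile normalization or median centring. Against A549 disco, 4 of the 65 were called higher in AD32 and 3 lower, where 2.46% of all genes were lower. These were DSC3 (3.20), LAMB3 (2.35), CGN (1.80) and KRT222 (0.70), and CDH11 (-2.17), KRT4 (-1.22) and PARD3 (-1.09). DSC3 and LAMB3 held in 9 of 9 fits that left out 1 array, while CGN was lost without A549 disco replicate 1 or 2, KRT4 without AD32 replicate 2 or A549 disco replicate 1, PARD3 without AD32 replicate 1 or 2 or either A549 disco array, and KRT222 in 7 of 9. CDH11 was lost without AD32 replicate 1 or 2 or A549 disco replicate 2, and leaving out A549 disco replicate 1 or 2 gave -2.91 and -1.43. In A549 disco against A549 DMSO 0 of the 65 were called by limma, and in AD32 4E-BP1 against AD32 DSC3 (-2.93) and LAMB3 (-2.88) were called lower.

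**Figure D3:**
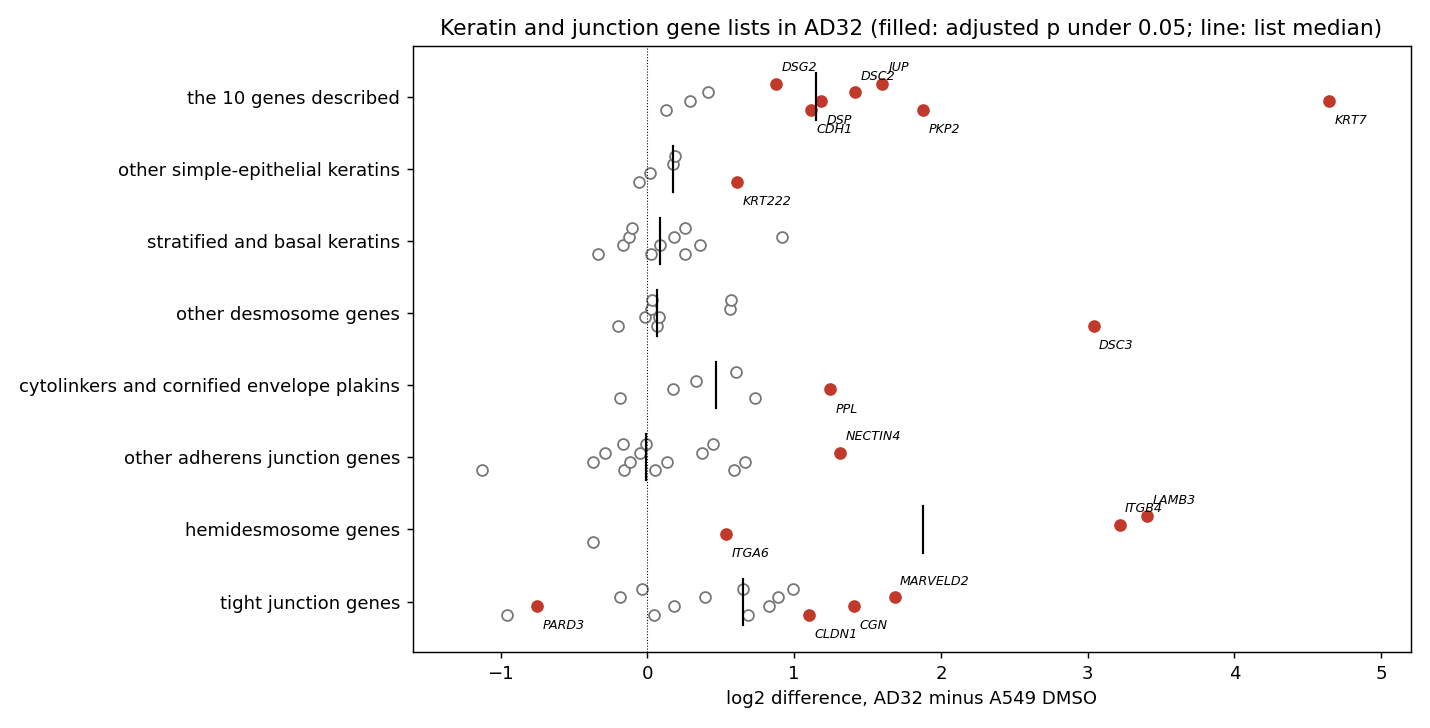
Log2 difference of AD32 minus A549 DMSO (horizontal axis) for the 10 genes and for 7 lists of other keratin and junction genes, 1 point per gene, filled where the limma adjusted p was under 0.05, with a line at each list's median. The 10 genes have a median of 1.15, and DSC3, LAMB3 and ITGB4 stand beyond 3 in lists whose other genes lie nearer 0.

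Transcription factors that act on CDH1 did not move one way. SNAI2, which encodes the CDH1 repressor Slug, had 6.69, 6.63 and 6.98 in AD32, 6.79 and 6.46 in A549 disco, and 5.51, 5.04, 5.11 and 5.47 in A549 DMSO. ZEB1, a further CDH1 repressor, had 6.23, 6.86 and 6.76 in AD32, 7.65 and 7.76 in A549 disco, and 7.38, 7.78, 7.84 and 7.68 in A549 DMSO. The AD32 4E-BP1 array, without drug, had 5.92 for SNAI2, between the AD32 and A549 DMSO arrays, and 7.83 for ZEB1. SNAI2 was above all A549 DMSO arrays in the other groups, and ZEB1 was lower on all AD32 arrays than on any other array. SNAI2 was higher than in A549 DMSO in AD32 by 1.48 (SE 0.17, limma adjusted p = 0.00161) and in A549 disco by 1.34 (SE 0.19, limma adjusted p = 0.0296), the second call being lost without AD32 replicate 1, A549 DMSO replicate 2, 3 or 4 or either A549 disco array. ZEB1 was lower in AD32 than in A549 DMSO by -1.05 (SE 0.18, limma adjusted p = 0.0114) and than in A549 disco by -1.09 (SE 0.22, limma adjusted p = 0.0277), the second call being lost without AD32 replicate 1, A549 DMSO replicate 4 or either A549 disco array. In that list of 13 repressors and mesenchymal genes, 3 were called higher and 1 lower in AD32 against A549 DMSO. ACTA2 (1.95) and TAGLN (0.66), which encode contractile proteins, were also called higher, TAGLN in 3 of 9 fits that left out 1 array. ACTA2 was also called higher in A549 disco than in A549 DMSO, by 2.76 (limma adjusted p = 0.019), in 4 of 9 such fits. Vimentin, VIM, differed by -0.51 (limma adjusted p = 0.434).

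Of 19 epithelial regulators and surface markers, 4 were called higher in AD32 than in A549 DMSO (3.52% of all genes) and 0 lower. They were the Krüppel-like factors KLF4 (1.70) and KLF5 (0.91), the forkhead factor FOXA1 (0.99) and CDS1 (1.53), an enzyme of phospholipid synthesis. KLF5 kept its call in 2 of 9 fits that left out 1 array and CDS1 in 5 of 9, KLF4 and FOXA1 in all 9, and KLF5 also lost its call with quantile normalization or median centring. EPCAM differed by 0.21 (limma adjusted p = 0.523). Among genes of junction turnover, EGFR (1.66) and RND3 (1.77) were called, 2 of 9, RND3 in 2 of 9 such fits. Markers of other cell types moved in part: of lung epithelial markers 0 of 14 were called, of fibroblast markers FBN1 was called higher and COL3A1 lower of 8, and of mesothelial markers MSLN was called higher, 1 of 4. MSLN, mesothelin, which many carcinomas also express, had 9.86, 9.32 and 8.33 in AD32, 6.13 and 6.11 in A549 disco, and 6.07, 5.91, 5.49 and 6.07 in A549 DMSO, a difference from A549 DMSO of 3.28 (limma adjusted p = 0.000619). AD32 was apart from the other arrays. The part of these genes in the changes of the 10 was not tested.

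Genes next to the 10 along the chromosome were looked at after their values had been seen, in the order of a GRCh38.p14 gene table. Of the 10 nearest measured neighbours of KRT7, 2 were called higher in AD32 against A549 DMSO, NR4A1 (1.10) and ATG101 (1.01). The 6 keratins among them, KRT80, KRT83, KRT85, KRT84, KRT75 and KRT5, differed by -0.06, 0.01, 0.08, 0.01, 0.03 and 0.02 and were not called. The KRT7 difference was thus not seen in KRT80, which averaged 9.26 in AD32 and 9.32 in A549 DMSO. KRT83 averaged 6.572 in AD32 and 6.565 in A549 DMSO, near the array medians. KRT85, KRT84, KRT75 and KRT5 averaged 5.06 to 5.57 in these groups, under the medians. Signal above background was not shown for the keratins other than KRT80, so their small differences say little. In the desmosomal cadherin cluster, DSC3 (3.04), DSC2 (1.41) and DSG2 (0.88) were called, while DSC1 (0.07), DSG1 (-0.20), DSG4 (0.02) and DSG3 (0.03), which lie between DSC2 and DSG2, were not. The AD32 and A549 DMSO means of DSC1, DSG1, DSG4 and DSG3 lay between 3.73 and 4.44, under the lower quartile of every array. Signal above background was not shown for them, so their small differences say little. Beyond that cluster B4GALT6 (1.31) was called. Of 10 neighbours each, those of CDH1, JUP and KRT19 held 0 called genes, those of DSP 1 (RREB1, 0.86) and those of PKP2 2 (FGD4, 1.38, and CPNE8, 0.60). Of all 18279 genes, 3.52% were called higher. ATG101 and CPNE8 lay close to the threshold (limma adjusted p = 0.0483 and 0.0493), and their calls were not followed with arrays left out.

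**Figure D4:**
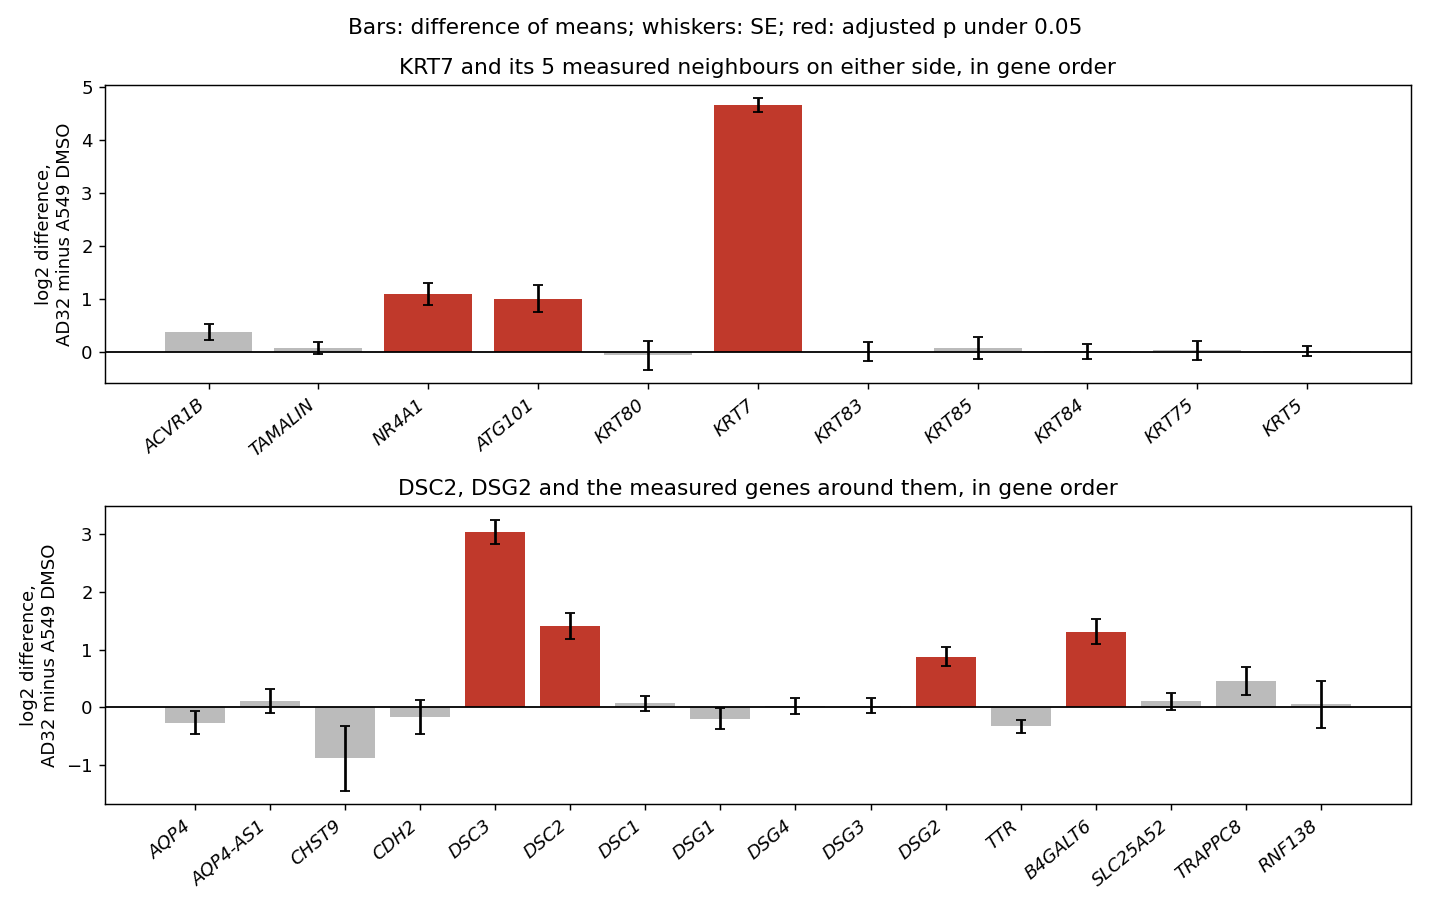
Log2 difference of AD32 minus A549 DMSO (vertical axis) for measured neighbours in gene order (horizontal axis) around KRT7 and in the desmosomal cadherin cluster, as bars with the SE as whiskers, red where the limma adjusted p was under 0.05. KRT7 stands at 4.65 among keratins between -0.06 and 0.08, and in the cadherin cluster the called DSC3, DSC2 and DSG2 flank 4 genes between -0.20 and 0.07. All of these keratins but KRT7 and KRT80 had mean signals near or under the array medians, and the 4 genes had means under the lower quartile.

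The genes whose levels ran most like those of KRT7, JUP, DSP and CDH1 were found by the root-mean-square difference of log2 levels centred on each gene's mean over the 10 arrays. For KRT7, whose own levels varied by 2.08 on that measure, the nearest were F5 (0.26), FSTL1 (0.27), NEO1 (0.34), CLTRN (0.39) and SERPINB7 (0.44). For JUP, at 0.78, they were LPIN2 (0.25), CDS1 (0.25), NHERF2 (0.29), HOXB13 (0.30) and HSPG2 (0.30). DSP, at 0.53, ran nearest to AKAP13 (0.13), ACVR1 (0.13), SPG11 (0.15), MAP3K9 (0.15) and PDGFA (0.15). CDH1, at 0.60, ran nearest to IRF1 (0.15), PPL (0.18), MVP (0.20), PHLDB3 (0.21) and PTPRM (0.21). No other of the 10 genes is among the nearest of KRT7, JUP, DSP or CDH1, and KRT7 was 1.39 from PKP2, its closest of the 10. The nearest genes of the rest of the 10 were not searched for, and KRT8 and KRT18 were 0.105 apart. The points share arrays and their scaling, and the closeness is a description.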

How the data were processed

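The 10 genes and the gene lists were chosen with earlier results of these data known. The authors deposited log2 signals (the scale was judged from their range). The submitters' processing notes name Affymetrix Expression Console as the software. The sources used here give neither its version nor the summarisation or normalization. No detection call or background estimate came with the values, and precision is limited by how many arrays there were. The platform annotation gave 1 gene for 19262 of 24308 probe sets, several for 1720 and none for 3326. Of 18279 genes, 740 had over 1 single-gene probe set, and the one with the highest mean was used.

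Differences were tested with limma 3.58.1 (lmFit, eBayes) in R 4.3.3 on all 10 arrays, with 4 group means, 6 residual degrees of freedom, two-sided p-values, Benjamini-Hochberg adjustment over all 18279 genes and a threshold of 0.05. The fit was also run on simulated data, as a check of the method and not of the differences given here. Tables and figures used Python 3.11.15, pandas 2.3.3, numpy 2.4.6 and matplotlib 3.10.9. Genes named from the other lists were those past the threshold in AD32 against A549 DMSO, A549 disco against A549 DMSO or AD32 against A549 disco, plus CDH2, VIM, SNAI2, ZEB1, EPCAM, CTNNB1 and PKP3. Alternatives comprised quantile normalization, centring on array medians, leaving out the lowest 33.3% of genes, a trended robust prior, array weights, 2 groups alone, averaged probe sets, averaging of A549 DMSO replicates 3 and 4, a minimum fold of 1.5, the replicate number as a block and each replicate left out.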

Additional observations from a re-analysis of the deposited data

Results flagged for a closer look

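In 4 of the 10 genes, 1 of the 4 A549 DMSO arrays lay far from the rest, a check that chance passes in about 1 group in 20. The share of all genes that pass it was not counted. Over all probe sets, A549 DMSO replicate 1 correlated at 0.956 to 0.961 with replicates 2 to 4. Those correlated at 0.991 to 0.997 with each other, so the rate of 1 in 20 need not hold for these arrays. KRT8 was lowest on A549 DMSO replicate 1, at 12.667, with the gap to its nearest neighbour taking up 0.950 of the group's range. KRT18 was lowest on the same array, at 13.029 (0.840 of the range), and these partner keratins share that array. DSP was highest on A549 DMSO replicate 2, at 9.22 (0.918), and PKP2 on the same array, at 8.612 (0.869). Only A549 DMSO had enough arrays for this check.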

How the results depend on the processing

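No called difference of the 10 genes changed sign under the alternatives run. For AD32 against A549 DMSO, where 7 of the 10 genes were called, the count was 2 with a minimum fold of 1.5 and 4 to 7 with 1 array left out. For A549 disco against A549 DMSO (0 called), it was 5 with array weights and 0 to 1 with 1 array left out. For AD32 against A549 disco (3 called), it was 5 with array weights, 1 with A549 DMSO replicates 3 and 4 averaged, 1 with a minimum fold of 1.5 and 1 to 5 with 1 array left out. For AD32 4E-BP1 against AD32 (1 called), it was 5 with array weights and 1 with 1 array left out, and against A549 DMSO it was 0 in each. Array weights also raised the calls over all 18279 genes. They went from 644 higher and 401 lower to 2037 and 2178 in AD32 against A549 DMSO. In A549 disco against A549 DMSO they went from 64 and 4 to 2707 and 1866. The change was from 234 and 449 to 684 and 1185 in AD32 against A549 disco. In AD32 4E-BP1 against AD32 it was from 62 and 106 to 593 and 689. The array weights rest on few arrays, and the cause of these shifts was not tested. By design, a minimum fold asks for a larger change and a left-out or averaged array leaves fewer arrays.

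As given above, array weights raised the calls over all genes too. Counts for the other 65 keratin and junction genes were added after seeing the data. In AD32 against A549 DMSO they stood at 11, 25 with array weights, 5 with A549 DMSO replicates 3 and 4 averaged, 3 with a minimum fold of 1.5 and 5 to 17 with 1 array left out. In AD32 against A549 disco they stood at 7, 16 with array weights, 4 in the fit of those groups alone, 2 with a minimum fold of 1.5 and 3 to 12 with 1 array left out.

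Whether the replicate numbers pair the samples could not be settled from so few pairs. Deviations of same-numbered AD32 and A549 DMSO arrays correlated at 0.677, -0.264 and 0.411 (Pearson's r over genes). Those of differently numbered arrays of these groups correlated at -0.612 to 0.534. With the replicate number as a block, 6 of the 10 genes were called in AD32 against A549 DMSO, 2 in AD32 against A549 disco and 0 in A549 disco against A549 DMSO, and 5 of the other 65 in AD32 against A549 DMSO and 5 in AD32 against A549 disco. AD32 4E-BP1 has 1 array with no number to block on.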
